A study of Arabidopsis thaliana with 8 samples.

Results

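The xyloglucan endotransglucosylase/hydrolase (XTH) family of Arabidopsis thaliana was followed across 4 groups of etiolated seedlings. Its 33 members, XTH1 to XTH33, were taken by their locus codes from the 27416 gene models listed in the deposited files. RNA was sequenced from whole seedlings of the Col ecotype, 4.5 days old, to compare the transcript response to red light in wild type and in phytochrome mutants. The phyAB red group was the phyAB mutant and the phyB red group was the phyB mutant, each sampled following 1 h under red light of 50 µmol per m2 per s. The WT red group was wild type after the same light, and the WT dark group was wild type kept in the dark. Germination had been started in all groups by 12 h of white light and then a 21 h germination period, followed by 4 days of darkness at 22 °C on medium with 1% sucrose. Each group held 2 libraries. The labels do not describe the mutant alleles, and libraries of dark mutants were not analysed here, so differences that a mutant may already have had in darkness cannot be told apart from its response to light.

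Xyloglucan is the main hemicellulose of the primary wall in dicot plants, where it binds to and lies between cellulose microfibrils. XTH enzymes are secreted into the wall, cut a xyloglucan chain and either join the cut end to another chain (endotransglucosylase activity) or to water (hydrolase activity). Etiolated hypocotyls grow by cell elongation, which needs the wall to yield, and red light absorbed by phytochromes slows that growth. The family's numbering follows sequence relatedness: XTH1 to XTH11 form the first subgroup, XTH12 to XTH26 the second, and XTH27 to XTH33 the third, which includes XTH31 and XTH32, grouped with the hydrolases.

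Several members are close copies of each other, and some lie next to each other in the genome. XTH17 (chromosome 1) and XTH18 (chromosome 4) shared 92.23% of aligned coding bases, XTH12 and XTH13 (both chromosome 5) 89.71%, XTH18 and XTH19 88.97%, XTH17 and XTH19 88.37%, and XTH15 and XTH16 81.66%. Stretches of 50 bases found in more than 1 member made up 0.194% of the transcript of XTH17, 1.57% of XTH18 and 1.63% of XTH19, and 0 in every other member, so reads that could be split between copies were confined to these 3 genes by that measure. Some members lie side by side: XTH24, XTH18 and XTH19 on chromosome 4, XTH13, XTH25 and XTH22 on chromosome 5, and the pairs XTH1 and XTH2, and XTH23 and XTH14, both on chromosome 4. XTH15 overlaps the convergent gene AT4G14120 by 382 bases on the opposite strand. The strandedness of the libraries is not given in the sources used here, but AT4G14120 was assigned 7 to 20 reads per library, far below XTH15.

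The 300 bases before the annotated gene start are printed for 6 members on which the comparisons turn: XTH15 and XTH16, close in coding sequence, the copies XTH17, XTH18 and XTH19, and XTH6. They were read from the RefSeq genome and annotation of TAIR10.1, each 5′ to 3′ on the strand of its gene. Capitals mark CATGTG, the other strand of CACATG, which with CACGTG is known as a hexamer that phytochrome-interacting factors can bind.
XTH15 (chr4:8138393-8138692, - strand): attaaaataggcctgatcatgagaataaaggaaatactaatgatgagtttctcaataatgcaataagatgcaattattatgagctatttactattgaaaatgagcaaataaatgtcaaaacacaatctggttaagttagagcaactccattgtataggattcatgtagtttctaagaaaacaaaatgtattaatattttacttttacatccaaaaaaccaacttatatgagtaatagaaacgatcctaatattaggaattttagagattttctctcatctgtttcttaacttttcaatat
XTH16 (chr3:8549737-8550036, + strand): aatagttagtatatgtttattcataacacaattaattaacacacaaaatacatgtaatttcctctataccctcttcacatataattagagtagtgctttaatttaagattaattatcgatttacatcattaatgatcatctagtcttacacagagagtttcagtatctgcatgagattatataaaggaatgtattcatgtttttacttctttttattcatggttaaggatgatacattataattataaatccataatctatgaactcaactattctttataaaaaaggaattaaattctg
XTH17 (chr1:24256754-24257053, + strand): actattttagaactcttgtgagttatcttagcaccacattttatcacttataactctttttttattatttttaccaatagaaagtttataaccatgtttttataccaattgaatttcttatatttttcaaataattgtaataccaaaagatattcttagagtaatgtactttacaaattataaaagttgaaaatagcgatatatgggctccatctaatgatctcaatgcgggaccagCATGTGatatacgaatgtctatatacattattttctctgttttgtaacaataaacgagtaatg
XTH18 (chr4:14827212-14827511, - strand): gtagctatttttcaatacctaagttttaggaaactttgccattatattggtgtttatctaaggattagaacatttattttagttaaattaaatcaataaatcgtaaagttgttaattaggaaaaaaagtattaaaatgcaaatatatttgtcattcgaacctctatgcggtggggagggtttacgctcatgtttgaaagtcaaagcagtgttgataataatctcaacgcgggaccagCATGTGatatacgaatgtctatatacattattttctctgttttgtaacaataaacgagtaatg
XTH19 (chr4:14830225-14830524, - strand): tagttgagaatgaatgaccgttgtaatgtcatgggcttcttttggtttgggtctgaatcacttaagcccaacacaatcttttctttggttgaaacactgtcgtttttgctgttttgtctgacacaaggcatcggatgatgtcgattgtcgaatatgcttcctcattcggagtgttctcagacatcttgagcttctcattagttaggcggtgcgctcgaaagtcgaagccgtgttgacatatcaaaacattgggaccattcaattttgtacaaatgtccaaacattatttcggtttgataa
XTH6 (chr5:26298428-26298727, + strand): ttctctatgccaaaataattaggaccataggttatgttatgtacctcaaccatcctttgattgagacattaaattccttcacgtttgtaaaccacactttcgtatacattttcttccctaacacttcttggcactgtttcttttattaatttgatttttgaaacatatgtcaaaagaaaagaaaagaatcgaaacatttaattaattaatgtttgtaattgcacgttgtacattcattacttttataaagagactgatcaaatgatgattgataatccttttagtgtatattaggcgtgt
In XTH17 and XTH18 the hexamer starts 63 bases before the gene start, within a stretch where the last 100 bases of the 2 windows were 87% identical. Over the last 100 bases, XTH19 aligned with XTH17 at 67.1% and with XTH18 at 71.4%, over 79 and 77 bases. Searched on both strands, CACGTG was in the 300-base window of 0 of 33 members, against 7.09% of 27443 Arabidopsis promoters of the same length. CACATG was in 5 of 33 (15.2%), namely XTH17, XTH18, XTH25, XTH26 and XTH33, against 13.1% of those promoters. CACATG and its other strand can overlap each other. Over 1000 bases, either hexamer was found in 16 members (48.5%), against 46.3% of promoters, so the family's share lay near that of all genes.

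The libraries held 15926547 to 22116924 counted reads, and 20716 genes, among them 28 of the 33 members, had enough reads to be tested. CPM values, which scale counts to library size (TMM), are used between groups, and RPKM, which also divides by gene length, between genes. PHYA had 124 and 123 CPM in phyAB red, 703 and 703 in phyB red, 463 and 471 in WT red and 834 and 828 in WT dark. PHYB had 52.9 and 50.4 CPM in phyAB red, 62.3 and 64.3 in phyB red, 96.0 and 95.2 in WT red and 80.7 and 81.4 in WT dark. Transcripts of the genes named in each mutant were below WT red but not absent. The phyAB red libraries stood apart in other ways. The etiolated-seedling gene PORA had 381 and 379.8 CPM there, 16.8 and 17.2 in phyB red, 18.2 and 21.2 in WT red and 135 and 141 in WT dark. Summed over 3 seed genes, CPM was 50.8 and 51.4 in phyAB red and 0.437 to 1.34 in the other 6 libraries. Whether phyAB red seedlings differed in developmental stage or germination timing was not tested. In the XTH values of phyAB red such a difference cannot be told apart from genotype. The labels do not say that the 2 libraries of a group came from separate cultures, so the p-values measure only the spread between these libraries, which may be technical. Statements below that libraries of 2 groups did not overlap describe the named genes only. The share of all genes without overlap was not computed, so they add no support to the calls. In whole seedlings, fewer cells of a type and less RNA per cell cannot be told apart.

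The members ranged widely in level. Averaged over the 8 libraries, 8 members stood above 100 RPKM, 11 between 10 and 100, 8 between 1 and 10, and 6 below 1. XTH4, a broadly expressed endotransglucosylase that also acts in wood formation, was first with a mean of 970.0 RPKM (802 to 1082 over the libraries). XTH24, first described as MERI5 in the shoot meristem, was next with 758 RPKM (626 to 893). These ranges did not overlap for XTH4 against XTH17 (325 RPKM, 199.5 to 504), the third in order, but XTH4 and XTH24 overlapped, and in WT dark XTH24 stood above XTH4 (864 and 863 RPKM for XTH24, 814 and 802 RPKM for XTH4). XTH17, XTH30 (288 RPKM), XTH15 (240.2 RPKM), XTH18 (229.8 RPKM) and XTH19 (158 RPKM) followed with ranges that overlapped each other over the 8 libraries. XTH15 spanned 45.0 to 543 RPKM between libraries, and XTH6, at a low level, 0.431 to 13.2 RPKM.

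**Figure D1:**
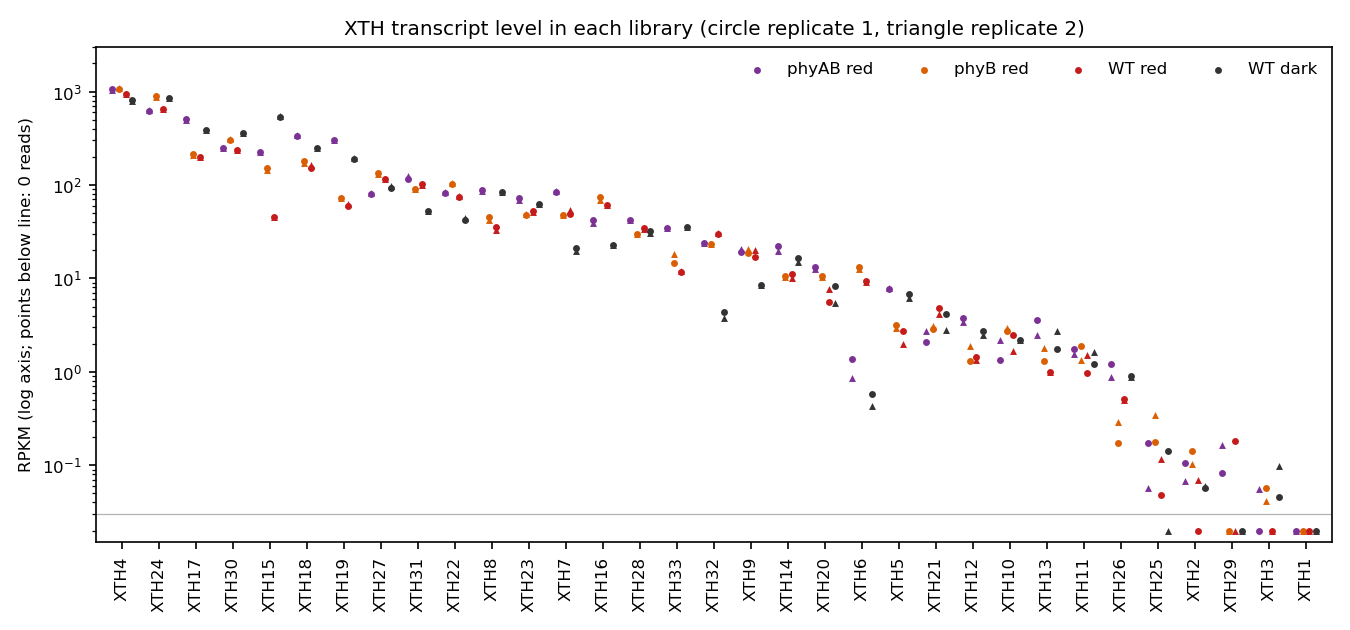
Transcript level of each of the 33 XTH genes in RPKM (log axis) in the 8 libraries, ordered by mean, with circles for replicate 1 and triangles for replicate 2. Members run from XTH4, with a mean of 970.0 RPKM, to XTH1, with 0 reads in every library, and XTH15, XTH6 and XTH32 show the widest gaps between groups among members above 1 RPKM.

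The family's share of all reads changed between groups. It was 0.470% and 0.469% in phyAB red, 0.423% and 0.421% in phyB red, 0.347% and 0.349% in WT red and 0.456% and 0.454% in WT dark. WT red had the lowest share, and no 2 groups overlapped. Within these reads, XTH15 made up 5.11% in phyAB red, 3.75% in phyB red, 1.39% in WT red and 12.7% in WT dark (means of 2 libraries). XTH4 made up 27.2% in phyAB red, 30.96% in phyB red, 32.9% in WT red and 21.6% in WT dark. The copies XTH17, XTH18 and XTH19 stood out in phyAB red, where XTH17 took 11.1%, XTH18 7.55% and XTH19 7.36% of XTH reads. In phyB red the same genes took 5.32%, 4.36% and 1.95%, in WT red 6.04%, 4.74% and 1.99%, and in WT dark 8.996%, 5.71% and 4.76%.

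**Figure D2:**
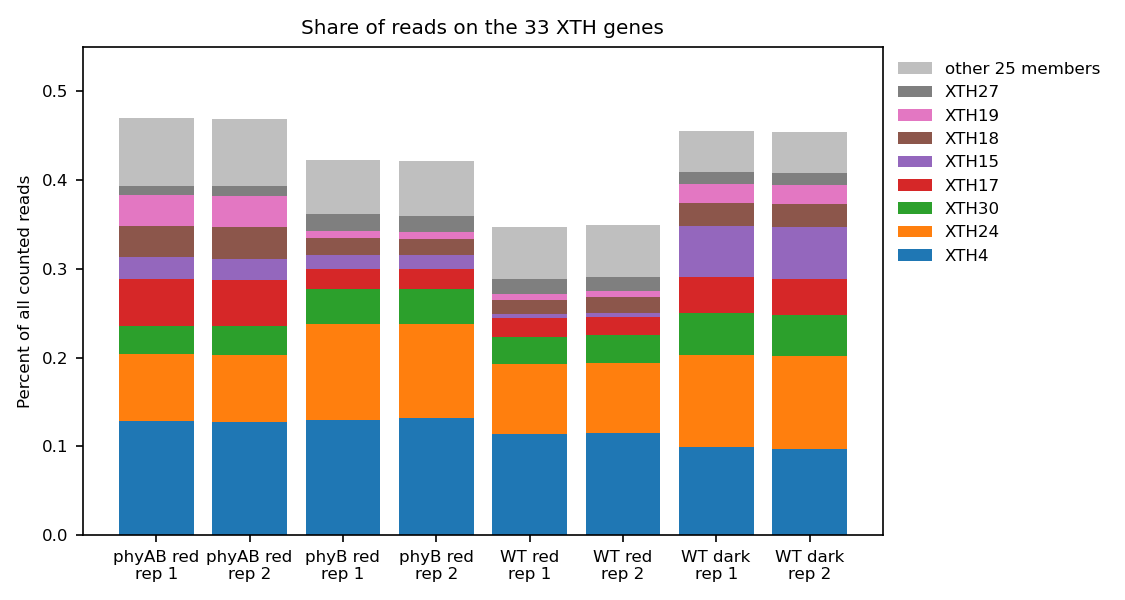
Percent of all counted reads that fell on the 33 XTH genes in each library, stacked by gene for the 8 with the highest mean RPKM, with the other 25 in light grey. The WT red bars are lowest, at 0.347% and 0.349%, and the XTH15 band is widest in WT dark.

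In WT red seedlings the family changed in both directions relative to WT dark. Of 28 tested members, 10 were higher and 13 lower (adjusted p under 0.05), and 5 did not pass. Over all genes tested, 24.1% were higher and 22.7% lower. At least 2-fold changes were seen for 5 members in the higher direction and 6 in the lower, against 7.10% and 2.70% of all genes. The median absolute log2 change was 0.86 over the members and 0.233 over all genes tested. By subgroup, 4 of the first rose, 2 fell, 2 did not pass and 3 were untested. In the second, 2 rose, 9 fell, 3 did not pass and 1 was untested. In the third, 4 rose, 2 fell and 1 was untested.

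Members higher after red light included the largest positive change of the family. XTH6, a member of the first subgroup (AT5G65730, chromosome 5, 26298728 to 26300529, + strand), had 10.7 and 10.4 CPM in WT red, against 0.651 and 0.483 in WT dark. Both red libraries lay far above both dark ones, and the log2 fold change was 4.19 ± 0.24 (SE, n = 2 per group, adjusted p = 7.72e-28 by edgeR's quasi-likelihood test). XTH32 (AT2G36870, chromosome 2, 15472607 to 15474828, - strand), classed with the hydrolases, had 35.5 and 36.7 CPM in WT red, against 5.11 and 4.40 in WT dark (2.92 ± 0.10, adjusted p = 5.27e-43). Its relative XTH31, for which hydrolase activity has been shown, had 134 and 131 CPM in WT red, against 67.0 and 66.9 in WT dark (0.99 ± 0.04, adjusted p = 4.71e-36). Both members of this predicted hydrolase pair were thus higher in every red library than in any dark one. XTH16, whose transcript is known to rise in shade, had 67.9 and 67.3 CPM in WT red, against 24.8 and 24.6 in WT dark (1.45 ± 0.06, adjusted p = 1.36e-37). XTH7 had 56.7 and 62.1 CPM in WT red, against 24.1 and 22.3 in WT dark (1.35 ± 0.06, adjusted p = 1.91e-34). XTH9, known from growing shoot apices and xylem, had 18.7 and 21.9 CPM in WT red, against 9.17 and 9.08 in WT dark (1.15 ± 0.10, adjusted p = 6.02e-17). These 3 genes likewise did not overlap between groups. The touch-induced gene XTH22 (TCH4) rose by less than 2-fold (0.82 ± 0.05), as did XTH27 (0.31 ± 0.04), known from leaf veins, and XTH4 (0.25 ± 0.01).

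Members lower after red light were led by XTH15 (AT4G14130, chromosome 4, 8137020 to 8138392, - strand), an endotransglucosylase gene known as a marker of shade responses. It had 49.1 and 49.8 CPM in WT red, against 578 and 581 in WT dark (-3.55 ± 0.04, adjusted p = 2.26e-81). XTH15 and XTH16, each other's closest relative in coding sequence, therefore moved in opposite directions. The root-expressed gene XTH19 had 69.1 and 72.7 CPM in WT red, against 214 and 221 in WT dark (-1.62 ± 0.04, adjusted p = 5.84e-54). XTH17, its copy on chromosome 1, had 216 and 214 CPM in WT red, against 409 and 412 in WT dark (-0.93 ± 0.03, adjusted p = 1.79e-44). XTH18, next to XTH19, had 164 and 174 CPM in WT red, against 261 and 261 in WT dark (-0.63 ± 0.03, adjusted p = 9.63e-30). All 3 copies were lower in every red library, whereas XTH20, the next closest in sequence, did not pass the test (-0.05 ± 0.15, adjusted p = 0.808). XTH33, predicted to be anchored in the plasma membrane, had 12.8 and 13.3 CPM in WT red, against 38.1 and 37.8 in WT dark (-1.54 ± 0.08, adjusted p = 1.31e-29). XTH8 had 40.7 and 38.2 CPM in WT red, against 94.8 and 95.9 in WT dark (-1.27 ± 0.05, adjusted p = 1.63e-38). XTH5 had 3.89 and 2.82 CPM in WT red, against 9.47 and 8.70 in WT dark (-1.42 ± 0.17, adjusted p = 1.02e-11). Abundant members fell by less: XTH24 changed by -0.37 ± 0.01 and XTH30 by -0.58 ± 0.02. Summed over 5 root hair genes, CPM was 31.2 and 34.5 in WT red, against 49.2 and 49.8 in WT dark. Of the 5, 3 were lower and 0 higher, beside 22.7% and 24.1% of all genes. Of 6 other root genes, 3 were higher and 2 lower. The part of root hair cells in the results for the root-expressed members was not tested. The call of XTH13 (-1.12 ± 0.35) was lost without WT dark replicate 2 (-0.81, adjusted p = 0.147), and that of XTH28 (0.17 ± 0.06) without WT red replicate 1 (0.14, adjusted p = 0.114) or WT dark replicate 2 (0.09, adjusted p = 0.293).

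**Figure D3:**
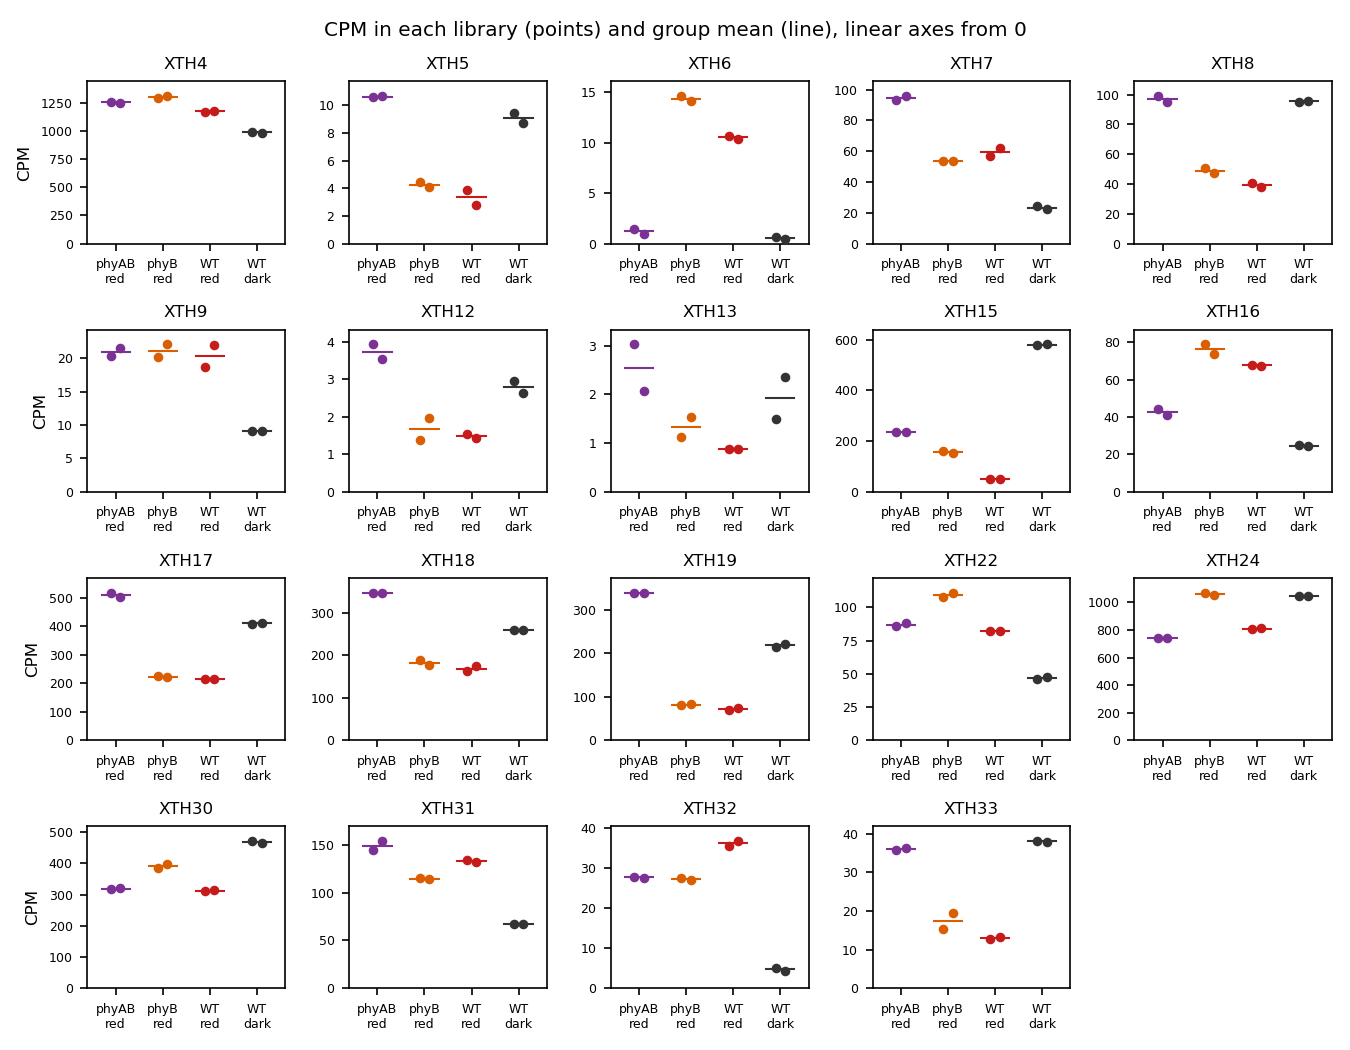
CPM of 19 XTH genes in each library (points) with the group mean (line), on linear axes that start at 0, one panel per gene. XTH15, XTH17, XTH18, XTH19, XTH5, XTH8 and XTH33 are lower in the WT red panels than in the WT dark ones, whereas XTH6, XTH7, XTH9, XTH16, XTH31 and XTH32 are higher.

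In phyAB red seedlings most tested members differed from WT red, and more were higher than lower. Of 28 members, 16 were higher, 6 lower and 6 did not pass, against 22.3% higher and 22.7% lower over all genes. Changes of at least 2-fold were seen for 9 members in the higher direction, against 4.10% of all genes, and for XTH6 alone in the lower one, against 2.95%. The median log2 change was 0.39 over the members and 0.00263 over all genes tested. The 9 members were XTH5, XTH8, XTH12, XTH13, XTH15, XTH17, XTH18, XTH19 and XTH33. This comparison shares the WT red libraries with that of WT red and WT dark, so the fold changes of a gene in the 2 are not independent. XTH26 had a log2 fold change of 1.01 ± 0.43 and narrowly missed the threshold (adjusted p = 0.0513).

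The root-expressed copies were among the members at least 2-fold higher, XTH19 with the largest change and XTH17 and XTH18 with the smallest. XTH19 (AT4G30290, chromosome 4, 14828712 to 14830224, - strand) had 338 and 339 CPM in phyAB red, against 69.1 and 72.7 in WT red (2.26 ± 0.04, 4.79-fold, adjusted p = 1.00e-66). XTH17 (AT1G65310, chromosome 1, 24257054 to 24258506, + strand) had 518 and 504 CPM in phyAB red, against 216 and 214 in WT red (1.25 ± 0.03, adjusted p = 2.00e-54). XTH18 (AT4G30280, chromosome 4, 14825757 to 14827211, - strand) had 347 and 348 CPM in phyAB red, against 164 and 174 in WT red (1.04 ± 0.03, adjusted p = 7.91e-46). Each of these 3 genes was higher in both phyAB red libraries than in any other library of the study. XTH20 had 14.5 and 13.97 CPM in phyAB red, against 6.42 and 8.78 in WT red (0.92 ± 0.13, adjusted p = 8.51e-09). XTH14, known from roots, had 23.7 and 21.2 CPM in phyAB red, against 12.3 and 11.3 in WT red (0.93 ± 0.10, adjusted p = 8.84e-14). XTH12 had 3.93 and 3.54 CPM in phyAB red, against 1.55 and 1.44 in WT red (1.32 ± 0.27, adjusted p = 1.90e-05), and XTH13, its close copy, changed by 1.55 ± 0.33. None of these groups overlapped. Beside these genes, 5 of 5 root hair genes were higher in phyAB red than in WT red, where 22.3% of all genes were. Their summed CPM was 62.3 and 65.8 in phyAB red, against 31.2 and 34.5 in WT red. PRP3 alone held 30.8 and 33.3 CPM of this in phyAB red, and 12.8 and 15.4 in WT red. Of 6 other root genes, 2 were higher and 2 lower, beside 22.3% and 22.7% of all genes. Their summed CPM was 16358 and 16242 in phyAB red, against 18693 and 18683 in WT red. That sum mainly reports 1 gene, PYK10, with 15857 and 15738 CPM in phyAB red, against 18238 and 18231 in WT red. None of these marker genes was at 0 in every library, and their part in the XTH results was not tested.

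Members of all 3 subgroups were also higher in phyAB red. XTH15 had 236 and 235 CPM in phyAB red, against 49.1 and 49.8 in WT red (2.25 ± 0.04, adjusted p = 1.64e-61). XTH33 had 35.9 and 36.3 CPM in phyAB red, against 12.8 and 13.3 in WT red (1.47 ± 0.08, adjusted p = 6.84e-28). XTH8 had 98.8 and 95.05 CPM in phyAB red, against 40.7 and 38.2 in WT red (1.29 ± 0.05, adjusted p = 4.49e-39). XTH5 had 10.6 and 10.7 CPM in phyAB red, against 3.89 and 2.82 in WT red (1.65 ± 0.16, adjusted p = 1.19e-14). In all 4 genes both mutant libraries lay above both WT red ones, a share not computed over all genes. XTH7 had 93.2 and 95.8 CPM in phyAB red, against 56.7 and 62.1 in WT red (0.67 ± 0.05, adjusted p = 1.94e-22). XTH7 stood at 24.1 and 22.3 CPM in WT dark, so phyAB red had its highest level.

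The member furthest in the other direction was XTH6, with 1.49 and 0.943 CPM in phyAB red, against 10.7 and 10.4 in WT red (-3.07 ± 0.20, adjusted p = 6.78e-24). Its phyAB red libraries lay next to those of WT dark. XTH16 had 44.3 and 41.0 CPM in phyAB red, against 67.9 and 67.3 in WT red (-0.66 ± 0.05, adjusted p = 2.99e-19). XTH27 had 109.6 and 111 CPM in phyAB red, against 164 and 163 in WT red (-0.57 ± 0.04, adjusted p = 1.64e-24). XTH32 had 27.9 and 27.6 CPM in phyAB red, against 35.5 and 36.7 in WT red (-0.38 ± 0.07, adjusted p = 3.13e-06). These 3 genes were lower in both mutant libraries. XTH21, known for a role in root growth, had 1.94 and 2.53 CPM in phyAB red, against 4.66 and 4.01 in WT red (-0.98 ± 0.23, adjusted p = 0.000257). XTH21 lies 419 bases beyond the end of PHYB on the same strand, and PHYB itself was lower in phyAB red. Whether reads or the mutant allele link the neighbours was not tested.

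In phyB red seedlings most XTH genes differed from WT red, all but 1 of those called by less than 2-fold. Of 28 members, 13 were higher, 6 lower and 9 did not pass, against 13.1% higher and 14.0% lower over all genes. XTH15 was the only called member past 2-fold, with 160.1 and 154 CPM in phyB red, against 49.1 and 49.8 in WT red (1.67 ± 0.05, 3.18-fold, adjusted p = 7.15e-49). XTH26, with few reads, changed by -1.10 but did not pass the test. It had 0.187 and 0.315 CPM in phyB red, against 0.570 and 0.564 in WT red. Over all genes, 1.16% were at least 2-fold higher and 1.06% at least 2-fold lower. The median absolute log2 change was 0.31 over the members and 0.152 over all genes tested. XTH22 was higher, with 108 and 111 CPM in phyB red, against 82.0 and 82.4 in WT red (0.42 ± 0.04, adjusted p = 2.24e-14), as was XTH24, with 1071 and 1057 CPM in phyB red, against 808 and 813 in WT red (0.39 ± 0.01, adjusted p = 2.07e-47). XTH30 had 386 and 397 CPM in phyB red, against 311 and 315 in WT red (0.33 ± 0.02, adjusted p = 8.87e-20). Both libraries of the mutant lay above both of WT red for these genes.

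XTH6, low in phyAB red, was raised in phyB red, with 14.6 and 14.1 CPM in phyB red, against 10.7 and 10.4 in WT red (0.44 ± 0.13, adjusted p = 0.0053). The root-expressed copies changed little from WT red. XTH17 changed by 0.05 ± 0.03 and did not pass (adjusted p = 0.273), whereas XTH18 (0.12 ± 0.04) and XTH19 (0.21 ± 0.05) were called higher. The 5 root hair genes changed by -0.15 to 0.17 on the log2 scale in phyB red against WT red, and 0 were called. Their summed CPM was 33.4 and 33.05 in phyB red, against 31.2 and 34.5 in WT red. Of the 6 other root genes, 3 were higher and 2 lower, beside 13.1% and 14.0% of all genes. XTH20 had 11.9 and 11.6 CPM in phyB red, against 6.42 and 8.78 in WT red (0.64 ± 0.14, adjusted p = 0.000116). XTH32 fell to 27.6 and 27.1 CPM in phyB red, against 35.5 and 36.7 in WT red (-0.40 ± 0.07, adjusted p = 2.11e-06), and XTH31 changed by -0.21 ± 0.04. Small calls depended on single libraries: the number lower was 3 instead of 6 without phyB red replicate 1, and 3 without phyB red replicate 2, with XTH7, XTH21 and XTH23 lost each time. XTH7 was also lost without WT red replicate 2 (-0.08, adjusted p = 0.403), XTH21 without WT red replicate 1 (-0.48, adjusted p = 0.26), and XTH23 without any 1 of the WT libraries (-0.15 to -0.12). Of those higher, XTH33 (0.44 ± 0.09) was lost without phyB red replicate 2 (0.24, adjusted p = 0.153), XTH20 without WT red replicate 1 (0.42, adjusted p = 0.0527), XTH16 without phyB red replicate 1 (0.12, adjusted p = 0.124), and XTH18 without phyB red replicate 1 (0.08, adjusted p = 0.202) or WT red replicate 1 (0.07, adjusted p = 0.316).

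**Figure D4:**
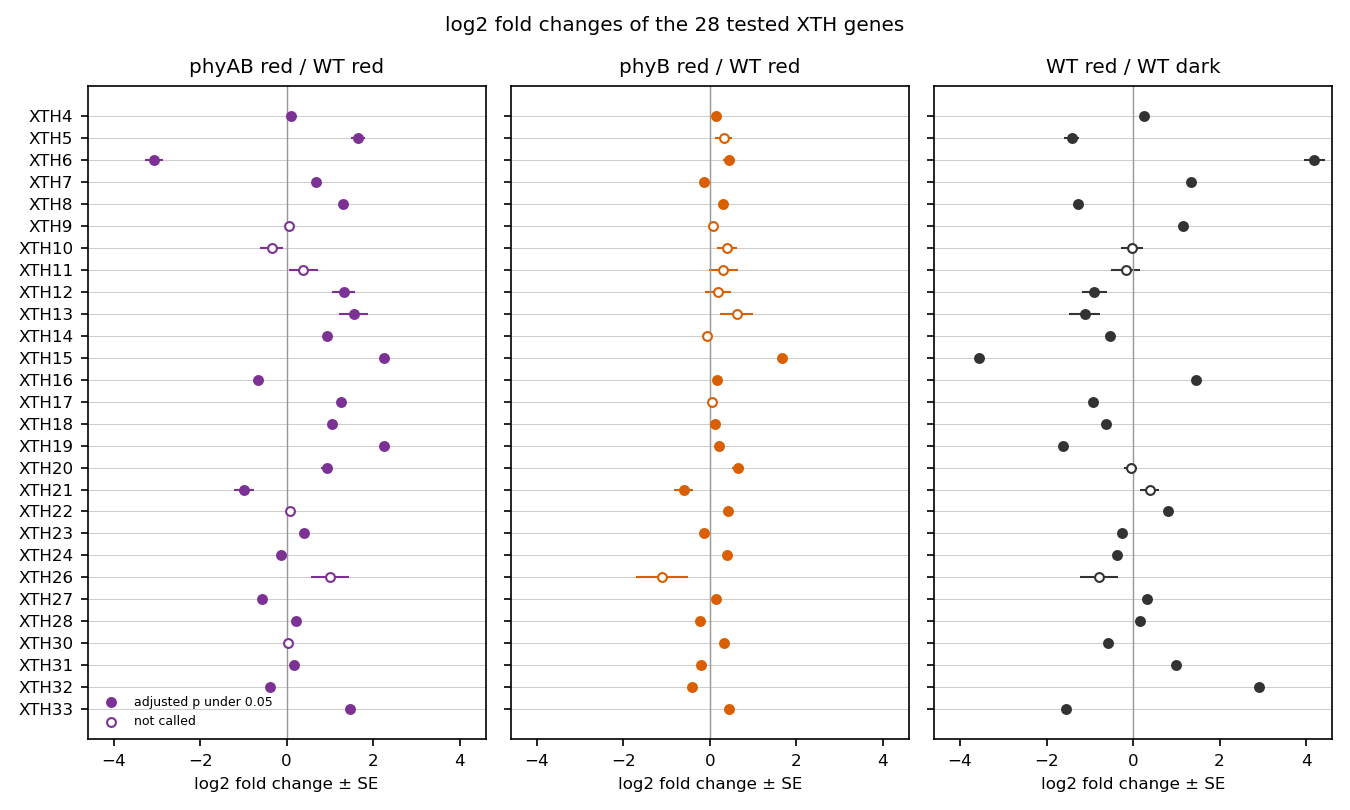
Log2 fold changes with their SE (bars) of the 28 tested XTH genes for phyAB red over WT red, phyB red over WT red and WT red over WT dark, with filled points for adjusted p under 0.05 and open points for genes that did not pass. XTH6 lies at -3.07 for phyAB red over WT red and at 0.44 for phyB red over WT red, and XTH19 lies at 2.26 and 0.21 in the same panels.

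The direct contrast of phyAB red with phyB red tested where the 2 mutants differed. Of 28 members, 16 were higher in phyAB red, 8 lower and 4 did not pass, against 26.0% higher and 24.1% lower over all genes. At least 2-fold higher were XTH5 (1.33 ± 0.15), XTH12 (1.13 ± 0.25), XTH17 (1.20 ± 0.03), XTH19 (2.05 ± 0.03), XTH26 (2.11 ± 0.50) and XTH33 (1.03 ± 0.08), 6 members where 4.89% of all genes reached that size. XTH26, expressed in root hairs, had 1.31 and 0.943 CPM in phyAB red, against 0.187 and 0.315 in phyB red, so its value rests on few reads. Of the 5 root hair genes, 4 were higher in phyAB red than in phyB red, 2 of them at least 2-fold (median log2 0.92), with a summed CPM of 62.3 and 65.8 in phyAB red, against 33.4 and 33.05 in phyB red. Of the 6 other root genes, 3 were higher and 1 lower, beside 26.0% and 24.1% of all genes. The part of these marker genes in the XTH values was not tested here either. XTH6 was the only member at least 2-fold lower (-3.51 ± 0.19, adjusted p = 3.60e-29), against 4.35% of all genes. It had 1.49 and 0.943 CPM in phyAB red, against 14.6 and 14.1 in phyB red. XTH15 also differed between the mutants, by 0.59 ± 0.03 (adjusted p = 5.91e-28). XTH24 (-0.52 ± 0.01), XTH27 (-0.72 ± 0.04) and XTH16 (-0.83 ± 0.05) were lower in phyAB red. XTH32 changed by 0.02 ± 0.07 and XTH9 by -0.02 ± 0.09, and neither passed the test. Leaving out single libraries ended the calls of XTH10 (-0.74 ± 0.25; -0.40 and adjusted p = 0.303 without phyAB red replicate 1, -0.69 and 0.0727 without phyB red replicate 2), XTH13 (0.93 ± 0.30; 0.61 and 0.23 without phyAB red replicate 1, 0.76 and 0.0753 without phyB red replicate 1) and XTH20 (0.28 ± 0.12; 0.25 to 0.30 without any 1 of the 4 mutant libraries).

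XTH levels in phyAB red also differed from those in WT dark. Of 28 members, 15 were higher and 5 lower in phyAB red than in WT dark, against 27.2% higher and 21.0% lower over all genes. XTH7 had 93.2 and 95.8 CPM in phyAB red, against 24.1 and 22.3 in WT dark (2.02 ± 0.06), and XTH32 had 27.9 and 27.6 CPM in phyAB red, against 5.11 and 4.40 in WT dark (2.54 ± 0.10). XTH31 (1.15 ± 0.04) and XTH9 (1.20 ± 0.10) were also at least 2-fold higher, as was XTH6 (1.12 ± 0.37) at its low level. At least 2-fold higher genes made up 6.28% of all tested. XTH15 was at least 2-fold lower in phyAB red (-1.30 ± 0.03), where 1.03% of all genes were. XTH8 and XTH33 did not pass the test in this contrast, at 0.03 ± 0.04 and -0.07 ± 0.07. The call of XTH6 was lost without phyAB red replicate 1 (0.72, adjusted p = 0.255) or WT dark replicate 2 (0.90, adjusted p = 0.0972), as were those of XTH21 without phyAB red replicate 1 (-0.39, adjusted p = 0.32) or WT dark replicate 1 (-0.32, adjusted p = 0.432) and XTH23 (0.15 ± 0.05) without the same 3 libraries in turn (0.10 to 0.11). XTH20 (0.87 ± 0.13) kept its call at 0.56 without WT dark replicate 2. Of the 5 root hair genes, 2 were higher in phyAB red, and of the 6 other root genes, 4 were higher and 1 lower.

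In phyB red, members lay on both sides of WT dark. Of 28 members, 10 were higher and 12 lower in phyB red than in WT dark, against 27.4% higher and 27.1% lower over all genes. XTH6, XTH7, XTH9, XTH16, XTH22 and XTH32 were at least 2-fold higher, against 8.03% of all genes, and XTH5, XTH15, XTH19, XTH26 and XTH33 at least 2-fold lower, against 2.96%. XTH6 changed most, by 4.64 ± 0.22. XTH15 had 160.1 and 154 CPM in phyB red, against 578 and 581 in WT dark (-1.88 ± 0.03). Its level thus lay between those of WT red and WT dark in both mutants. XTH12 (-0.70 ± 0.27) was lost without phyB red replicate 1 (-0.50, adjusted p = 0.176) or WT dark replicate 1 (-0.64, adjusted p = 0.104). XTH20 (0.59 ± 0.13) was lost without WT dark replicate 2 (0.30, adjusted p = 0.0928) and stood at 0.91 without WT dark replicate 1. Here 4 of the 5 root hair genes were lower in phyB red, and of the 6 other root genes, 3 were higher and 2 lower.

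Over the 6 contrasts, 27 of the 28 tested members passed the test at least once and 10 passed in all 6. The same shares were not computed over all genes, and even slight changes pass here. These 2 counts therefore do not set the family apart from other genes. XTH11 passed in none, at 1.81 and 1.59 CPM in phyAB red, 1.93 and 1.39 in phyB red, 1.04 and 1.63 in WT red and 1.25 and 1.72 in WT dark. Untested were XTH1, XTH2, XTH3, XTH25 and XTH29. XTH1 had 0 reads in every library, and the other 4 had 0 to 8 reads per library. XTH25 thus stood near the detection limit although its neighbours XTH13 and XTH22 on chromosome 5 were measured, at means of 1.96 and 76.2 RPKM. XTH3, known for an activity that also uses cellulose, had 0 to 2 reads per library. These levels were too low to show a difference at this depth.

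Genes that make and trim the xyloglucan on which XTH enzymes act were read beside the family. All 19 listed genes were tested. In WT red against WT dark, 2 were higher and 7 lower, beside 24.1% and 22.7% of all genes. The 47.4% called in both directions together lay near the share of all genes, but more were lower than higher. XLT2, a galactosyltransferase of the side chains (0.92 ± 0.12), and CSLC12, a glucan synthase of the backbone (0.53 ± 0.21), were higher. The β-galactosidase BGAL10 (-1.17 ± 0.05) and the α-xylosidase XYL1 (-0.91 ± 0.03), which trim side chains in the wall, and the backbone synthase CSLC4 (-0.71 ± 0.04) were lower. In phyAB red against WT red, 11 were higher and 2 lower, beside 22.3% and 22.7% of all genes. CSLC4 had 225 and 227 CPM in phyAB red, against 123 and 122 in WT red (0.88 ± 0.04), and BGAL10 had 109.9 and 101 CPM in phyAB red, against 55.8 and 60.4 in WT red (0.87 ± 0.05). The xylosyltransferase XXT3 (0.91 ± 0.22), XYL1 (0.54 ± 0.03) and the O-acetyltransferase AXY4 (0.53 ± 0.07) were also higher, and CSLC12 (-0.53 ± 0.21) and XLT2 (-0.42 ± 0.11) lower. In phyB red against WT red, 5 were higher and 1 lower, beside 13.1% and 14.0% of all genes. The 31.6% called in both directions together lay near the share of all genes, but more were higher than lower. XYL1 had 338 and 334 CPM in phyB red, against 169 and 174 in WT red (0.97 ± 0.03), and was lower in phyAB red than in phyB red (-0.43 ± 0.03). XXT3 changed by 0.84 ± 0.23 in phyB red against WT red. Between the mutants, 10 were higher and 3 lower in phyAB red than in phyB red, beside 26.0% and 24.1% of all genes. Against WT dark, 11 were higher and 3 lower in phyAB red, beside 27.2% and 21.0% of all genes. In phyB red, 3 were higher and 6 lower than in WT dark, beside 27.4% and 27.1% of all genes. The median log2 change of the 19 genes was 0.27 in phyAB red against WT red, 0.04 in phyB red against WT red and -0.03 in WT red against WT dark, beside 0.00263, 0.00189 and 0.00219 over all genes tested.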

How the data were processed

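Counts and RPKM for each gene model of 8 libraries were taken from the deposited files, per the file headers. The counts deposited by the authors are whole numbers that were not normalized, and the authors' RPKM values scale them by gene-model length and library total (the same whole length, within 0.05, for 18010 of 18010 models checked). Per the submitters' processing notes, the build was TAIR10. The sources used here do not give the aligner, the counting tool, the treatment of reads that fit several genes or whether the libraries kept strand information.

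Counts were fitted in R 4.3.3 with edgeR 4.0.16 after filterByExpr (minimum count 10, 20716 genes) and TMM scaling, as 1 model with 4 group means. Contrasts were tested with the quasi-likelihood F-test, with Benjamini-Hochberg adjustment over all 20716 genes, and called at 0.05. SE is the absolute log2 fold change over the square root of F. The common biological coefficient of variation was 1.59%, and the per-gene chi-square of replicate libraries was 1.34 to 1.47, so even slight changes pass. The fitting code was tested on simulated counts.

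Members with a call of at least 2-fold and at least 1 CPM on average, and the 5 with the highest mean RPKM, were named by rule, 19 in all. Others were named after their values were seen. The members and lists (xyloglucan synthesis and trimming, root hair, root, seed, etiolated seedling) were chosen with earlier results of these data known. Alternatives were DESeq2 1.42.0, its size factors in edgeR, no filter, a fit of only the groups compared, glmTreat against 1.5-fold, a replicate block and leaving out each library. Coordinates, neighbours and sequences come from RefSeq TAIR10.1, and coding identity from global alignment with Biopython 1.88. The files' gene models are not those of that annotation: implied length equalled the annotated transcript for 2221 of 19866 models.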

Additional observations from a re-analysis of the deposited data

How the results depend on the processing

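No called member changed direction under any alternative run. DESeq2 size factors in edgeR kept the side of the threshold for 166 of 168 values (28 members in 6 contrasts) and moved the median of all genes by at most 0.0145 on the log2 scale. The DESeq2 Wald test kept 155 of 168. It called 3 members lower in phyB red than in WT red in place of 6, and 3660 genes in all in place of 5608. Leaving out 1 library at a time, that count of 6 ranged from 3 to 6, and every other count of members stayed within 1.5 times its reported value. Calls of members with few reads and of small changes were those lost.

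Libraries with equal replicate numbers showed no shared deviation (correlation of deviations between groups -0.0148 to 0.00818). Replicate libraries differed by little more than counting noise, so this check cannot exclude a small shared batch. A replicate block left 16 members higher and 6 lower in phyAB red than in WT red and changed 1 of 168 calls, that of XTH20 in phyAB red against phyB red (adjusted p = 0.0535).

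Testing against a 1.5-fold change (glmTreat) asks for larger changes by construction and called fewer. In phyAB red against WT red, 11 members were higher, 1 was lower and 1640 genes were called. In phyB red against WT red, 1 member was higher, 0 lower and 379 genes called, where DESeq2 called 3 members lower. In phyAB red against phyB red, 10 were higher, 3 lower and 2386 genes called. In WT red against WT dark, 7 were higher, 6 lower and 2296 genes called. In phyAB red against WT dark, 7 were higher, 1 lower and 1729 genes called. In phyB red against WT dark, 7 were higher, 7 lower and 2720 genes called.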
